A study of Caenorhabditis elegans with 2 samples.

Results

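Binding of LIN-35 was examined at 8 genes of Caenorhabditis elegans that encode subunits or partners of 2 chromatin complexes. The genes were let-418, mep-1, hda-1 and lin-40 for the nucleosome remodelling and deacetylase complex NuRD, and mys-1, epc-1, trr-1 and ssl-1 for the histone acetyltransferase complex NuA4. They were taken by name from 19973 nuclear protein-coding genes, and all 8 symbols were found in the annotation. LIN-35 was recovered by ChIP-seq from whole young adults of mixed sex of strain YL521, which carries unc-119(ed3) III and the integrated array vrIs117. In that array the germline promoter of pie-1 drives LIN-35 tagged with GFP and FLAG ahead of the PUF-5 3' end, beside unc-119 (+) as a rescue gene. Chromatin was sonicated, the antibody is listed only as lin-35, and the share of tagged and endogenous LIN-35 in the recovered material is not stated. The study has 1 group of 2 biological replicates and no second condition, so what follows describes positions and strengths of peaks and contains no test between groups. Whole worms were used, so binding in some cells cannot be told apart from weaker binding in all of them.

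LIN-35 is the retinoblastoma-family pocket protein of the worm and belongs to the DREAM complex, which represses genes through E2F-DP and LIN-54 subunits that contact DNA. NuRD joins a chromatin-remodelling ATPase to a histone deacetylase, and NuA4 places acetyl groups on histones H4 and H2A. In the worm, lin-35 and the NuRD genes let-418, mep-1 and hda-1 belong to the synthetic multivulva (synMuv) class B genes, and the 4 NuA4 genes belong to class C; mutants of either kind develop extra vulval tissue in the right genetic background.

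The deposited lists used here were a list thresholded by irreproducible discovery rate (2712 peaks), a relaxed list from both replicates pooled (30000 peaks) and a relaxed list for each replicate (30000 and 26192 peaks). The relaxed lists contain background as well as peaks. Signal is the value that the authors' caller gave each peak, on a scale that is not stated, so it is compared only within a list. Rank 1 is the strongest summit of a list, and the thresholded list consists of the 2712 strongest summits of the pooled list. A gene is called bound where a summit lies within 500 bp of its annotated 5' end, and offsets are negative upstream. Positions are those of build ce11, which is WBcel235, with genes from Ensembl. Read depth is unknown, and the −log10 q-value has the same value of 3.78 for every thresholded peak.

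The sequences around the summits that carry these results are shown first, because they hold or lack the words read by the DNA-binding subunits of DREAM. Each is 101 bases of the WBcel235 assembly (RefSeq), centred on the summit and written 5' to 3' along the strand of the gene. Capitals mark the E2F word (spelled TTCCCGC or TTCGCGC, and also TTGCCGC or TTGGCGC) and the CHR word (TTTGAA or TTCGAA) on either strand. The trr-1 window is centred on the summit of the replicate 2 list, and the others on thresholded summits.
mys-1 (chrV:7084900-7085000, minus strand): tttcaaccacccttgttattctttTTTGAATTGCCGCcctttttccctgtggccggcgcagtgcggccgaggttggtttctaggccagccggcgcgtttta
epc-1 (chrIII:12608769-12608869, minus strand): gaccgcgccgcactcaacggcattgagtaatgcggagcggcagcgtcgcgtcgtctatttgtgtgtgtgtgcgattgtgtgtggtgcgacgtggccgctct
trr-1 (chrII:11676077-11676177, minus strand): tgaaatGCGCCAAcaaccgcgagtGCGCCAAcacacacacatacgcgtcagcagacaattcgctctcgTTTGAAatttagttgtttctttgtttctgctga
ssl-1 (chrIII:12714002-12714102, plus strand): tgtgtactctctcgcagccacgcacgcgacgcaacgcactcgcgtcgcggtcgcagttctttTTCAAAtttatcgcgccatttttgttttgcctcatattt
mep-1 (chrIV:11524440-11524540, plus strand): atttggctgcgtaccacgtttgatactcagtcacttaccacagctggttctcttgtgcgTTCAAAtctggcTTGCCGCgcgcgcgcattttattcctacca
lin-40 (chrV:3704040-3704140, plus strand): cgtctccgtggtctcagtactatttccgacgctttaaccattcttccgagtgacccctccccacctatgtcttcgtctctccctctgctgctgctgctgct
hda-1 (chrV:14524359-14524459, plus strand): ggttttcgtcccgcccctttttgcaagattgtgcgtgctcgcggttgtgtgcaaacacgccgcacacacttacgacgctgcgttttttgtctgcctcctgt

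In the thresholded list 3 of the 8 genes were bound, mys-1, epc-1 and mep-1, while 8.61% of all coding genes were. Within 1000 bp the count was 6 of 8, with ssl-1, lin-40 and hda-1 added, against 10.9% of all coding genes. NuA4 genes supplied 2 of the 3 at 500 bp and 3 of the 6 at 1000 bp. The strongest signal of the 3 genes bound at 500 bp had a median of 91.8, and that of all 1719 bound genes was 86.1. At 1000 bp the median was 60.2 for the 6 genes and 84.8 for the 2182 coding genes. The remaining genes, let-418 and trr-1, had their nearest thresholded summits 14293 and 22950 bp away.

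**Figure D1:**
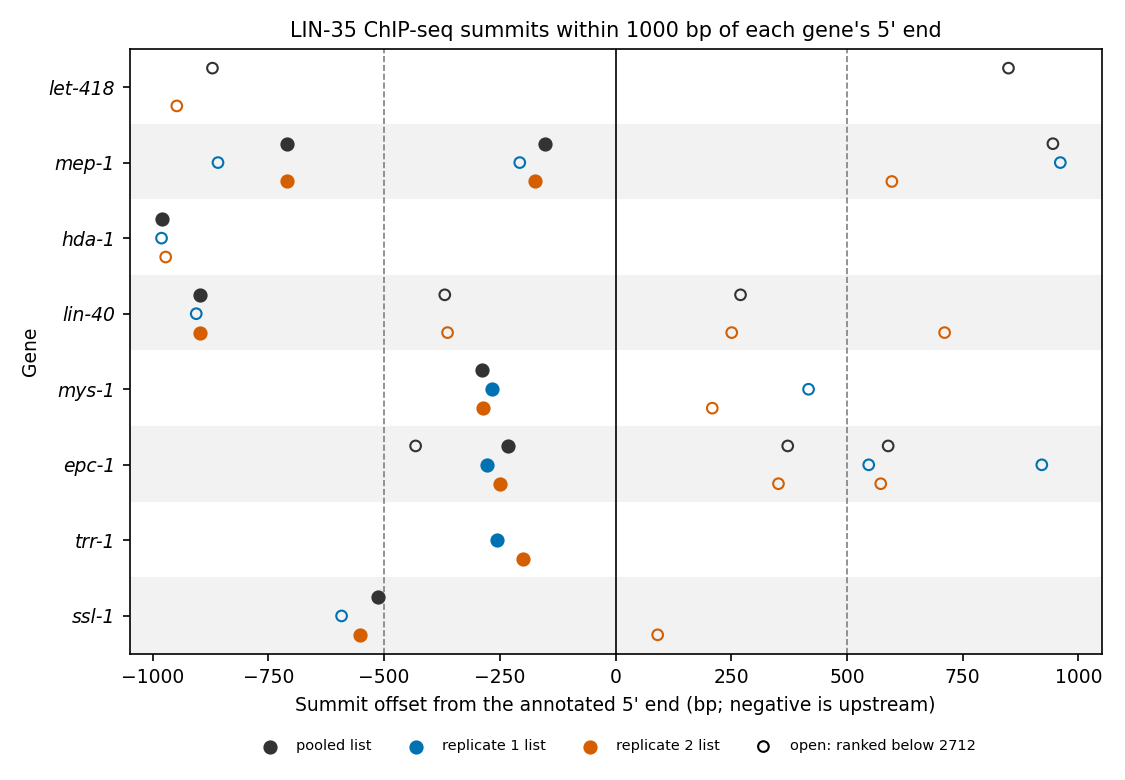
Summits within 1000 bp of each gene's annotated 5' end, plotted by signed distance in bp (x axis) for each gene (y axis), with 1 lane each for the pooled list, replicate 1 and replicate 2. Filled circles rank among the 2712 strongest of their list, which for the pooled list means the thresholded peaks; trr-1 has a filled circle in each replicate lane at -256 and -200 bp and none in the pooled lane.

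mys-1 (WBGene00007029) encodes the MYST-family histone acetyltransferase of NuA4, the worm counterpart of human Tip60, and lies at chromosome V 7081545 to 7084662 on the minus strand. Its summit was 288 bp upstream, between mys-1 and its divergent neighbour VC5.2, in a peak at chromosome V 7084826 to 7085027, where its signal was 227 and its rank 217 in the thresholded list. In replicate 1 the summit was at -266 bp with a signal of 94.0 and rank 188, and in replicate 2 at -287 bp with a signal of 130.3 and rank 251. The 3 summits lay within 22 bp of each other, and mys-1 was the most strongly marked of the 8 genes in each list. The sequence above holds both words end to end, the CHR word TTTGAA first and the E2F word TTGCCGC after it, 14 bp from the summit at its nearest base, as all such distances are given. Weak entries lay inside the gene, at +417 bp in replicate 1 (rank 26066) and +209 bp in replicate 2 (rank 16851). The only pooled summit within 1000 bp of the mys-1 5' end was the upstream one.

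epc-1 (WBGene00007030) encodes the Enhancer of Polycomb homologue, a scaffold subunit that links the acetyltransferase to the rest of NuA4. The gene lies at chromosome III 12599630 to 12608586 on the minus strand. Its thresholded peak was narrow, 99 bp wide at chromosome III 12608775 to 12608873, with a summit at -233 bp, a signal of 91.8 and rank 875. The summit was at -278 bp with a signal of 34.2 and rank 1014 in replicate 1, and at -250 bp with a signal of 68.9 and rank 717 in replicate 2. The divergent gene Y111B2A.12 shares this summit, at -470 bp from its own 5' end, and epc-1 is the nearer of the pair. Neither an E2F nor a CHR word occurred within 100 bp of the summit. In replicate 2 a further summit lay 573 bp inside the gene, in an intron, at rank 3835; the replicate 1 entry nearest to it, at +547 bp, had rank 26968.

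trr-1 (WBGene00007028) encodes the TRRAP homologue, a large adaptor that activators contact in NuA4, and lies at chromosome II 11661569 to 11675927 on the minus strand. It was strongly marked in both replicate lists and absent from the pooled and thresholded ones. Replicate 1 had a peak at chromosome II 11676035 to 11676330 with a summit at -256 bp, a signal of 37.3 and rank 864. Replicate 2 had one at chromosome II 11676073 to 11676214 with a summit at -200 bp, a signal of 88.7 and rank 476. Both carried the highest −log10 q-value of their list, 3.78 and 4.13. Much weaker entries shared these values, such as ssl-1 at rank 4917 in replicate 1 and let-418 at rank 5096 in replicate 2. The q-values therefore do not set trr-1 apart. The summits were 56 bp apart, in the 378 bp between trr-1 and its divergent neighbour C47D12.2, and nearer to the latter, at -123 and -179 bp from its 5' end. The nearest summit of the pooled list was 15221 bp from the trr-1 5' end.

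The absence of trr-1 from the pooled list was uncommon but not singular. Of 1490 summits that were within 200 bp of each other among the 2712 strongest of both replicates, 28 (1.88%) had no pooled summit within 200 bp, and 26 of these overlapped no pooled peak at all. This count was made after the trr-1 values were seen, and the cause was not tested. The trr-1 sequence holds the E2F word TTGGCGC in 2 copies on the opposite strand (printed as GCGCCAA), both between the replicate summits, and a CHR word 18 bp on the gene side of the replicate 2 summit. No thresholded window of the 8 genes had more than 1 E2F word.

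ssl-1 (WBGene00007027) encodes a Swi2/Snf2-type ATPase of the p400 and SWR1 kind, and at 30156 bp it is the longest of the 8 genes (chromosome III 12714566 to 12744721, plus strand). Its thresholded peak, at chromosome III 12713904 to 12714199, fell just outside 500 bp, with a summit at -514 bp, a signal of 44.7 and rank 2483. Replicate 2 had it at -552 bp with a signal of 33.2 and rank 2052, and replicate 1 at -592 bp with a signal of 13.6 and rank 4917. It thus ranked among the 2712 strongest in replicate 2 but not in replicate 1. The summit is in the 691 bp between ssl-1 and hut-1, the tandem gene upstream, and a CHR word lies 12 bp from it. A weak entry in the coding sequence of ssl-1, at +91 bp in replicate 2, had rank 21283.

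mep-1 (WBGene00003218) encodes a zinc-finger protein that binds LET-418 and is counted here as a NuRD partner. Of the genes listed for NuRD it was the only one bound at 500 bp in the thresholded list, where let-418, hda-1 and lin-40 were not. The gene lies at chromosome IV 11524642 to 11527954 on the plus strand, 2427 bp from its upstream neighbour gfl-1, which encodes a YEATS-domain protein. It had 2 thresholded peaks, both near the weak end of the list. The nearer, at chromosome IV 11524342 to 11524637, had its summit at -152 bp with a signal of 43.4 and rank 2574. The farther, at chromosome IV 11523785 to 11524080, had its summit at -709 bp with a signal of 42.0 and rank 2697 of 2712.

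The replicates differed in how well they held these mep-1 peaks. The nearer was at -207 bp with a signal of 17.7 and rank 3173 in replicate 1, and at -173 bp with a signal of 30.1 and rank 2351 in replicate 2. For the farther, replicate 2 had a summit at the same base with rank 2639, whereas the closest entry of replicate 1, 150 bp away, had rank 28975 and a −log10 q-value of 0.320. Both thresholded summits fall within annotated noncoding RNAs transcribed on either strand, M04B2.11 and M04B2.13 for the nearer and M04B2.10 and M04B2.12 for the farther. The printed window of the nearer summit holds an E2F word 21 bp and a CHR word 9 bp from the summit, the CHR word on the opposite strand.

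hda-1 (WBGene00001834) encodes a class I histone deacetylase, the subunit of NuRD that removes acetyl groups, at chromosome V 14525389 to 14527411 on the plus strand. No list had a summit within 500 bp of it. The thresholded peak at chromosome V 14524261 to 14524556 had its summit at -980 bp, with a signal of 58.6 and rank 1684. In replicate 1 the summit was at -981 bp with a signal of 15.0 and rank 4201, and in replicate 2 at -972 bp with a signal of 21.6 and rank 3601. Both replicates placed it within 8 bp of the thresholded summit, although neither ranked it among its 2712 strongest. It lies in the noncoding RNA C53A5.18 and at -280 bp from ril-1, the divergent neighbour, so by nearest 5' end it belongs to ril-1. The printed bases hold neither word, and a single CHR word lies 56 bp from the summit.

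lin-40 (WBGene00003025) encodes an MTA-family protein, a structural subunit of NuRD, at chromosome V 3704988 to 3712796 on the plus strand, with 5 annotated coding transcripts from 3 start positions. Its thresholded peak at chromosome V 3703942 to 3704237 had a summit at -898 bp, a signal of 61.8 and rank 1568. Replicate 2 had it at the same base with a signal of 49.8 and rank 1159, and replicate 1 at -906 bp with a signal of 14.1 and rank 4642. The summit is intergenic, 3072 bp separate lin-40 from its upstream neighbour unc-132, and no other coding 5' end lies within 1000 bp of it. Weak pooled entries at -369 and +270 bp had ranks 23430 and 19225 and −log10 q-values of 0.580 and 0.987. Neither word occurred within 100 bp of the thresholded summit.

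let-418 (WBGene00002637) encodes the Mi-2 family ATPase of NuRD, at chromosome V 5826833 to 5832831 on the plus strand. It was the only one of the 8 with no summit within 1000 bp in replicate 1. The pooled list had a summit at -871 bp, at chromosome V 5825814 to 5826109, with a signal of 27.1 and rank 5167, below the threshold. Replicate 2 had one at -948 bp with a signal of 16.5 and rank 5096. The upstream space is wide, 13695 bp to the divergent gene ZC250.4.

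**Figure D2:**
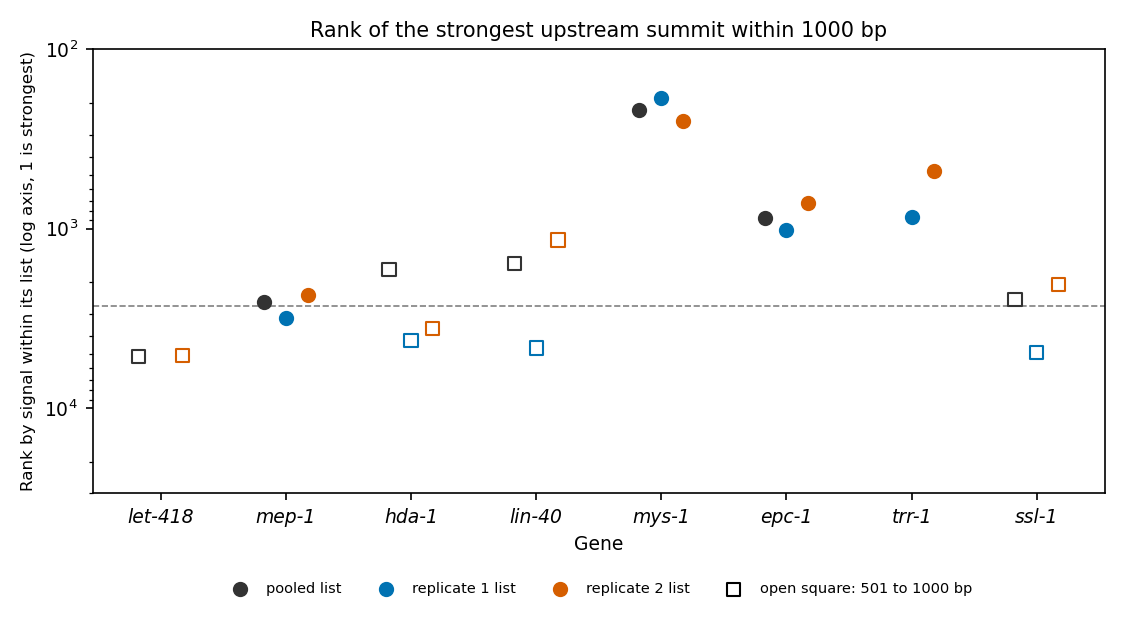
Rank by signal of the strongest upstream summit within 1000 bp of each gene (x axis) in the pooled, replicate 1 and replicate 2 lists, on a log axis with rank 1 strongest (y axis). Circles lie within 500 bp and open squares beyond 500 and up to 1000 bp, and the dashed line is rank 2712; mys-1, epc-1 and trr-1 are above it in both replicates, from 188 to 1014.

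All 7 thresholded summits within 1000 bp of the genes had a summit within 200 bp in each full replicate list, as did 95.3% of the 1658 thresholded summits within 1000 bp of any coding 5' end. The replicate 1 match of the farther mep-1 summit was weak, at rank 28975. Among the 2712 strongest of both replicates, 2 of the 7 were matched, those of mys-1 and epc-1, against 59.3% of the 1658. The unmatched summits ranked from 1568 to 2697 in the thresholded list, whereas the 1658 include summits of all ranks. No share at like ranks is given. The shortfall was in replicate 1, whose 2712 strongest matched 2 of the 7 and 70.7% of the 1658, while those of replicate 2 matched 6 of the 7 and 82.0%. In replicate 1 cut to its 2712 strongest peaks, 3 of 8 genes had a summit within 500 bp (7.75% of all coding genes did) and the same 3 within 1000 bp (10.1%). These were the NuA4 genes mys-1, epc-1 and trr-1. In replicate 2 cut the same way the count was 4 of 8 at 500 bp, with mep-1 added (8.47% of coding genes), and 6 of 8 at 1000 bp, with lin-40 and ssl-1 added (10.8%).

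Among the strongest of both replicates the count was 3 of 8 at 500 bp, where 5.65% of coding genes qualified, and 3 of 8 at 1000 bp, where 7.27% did. No NuRD gene was among them. In the full relaxed lists the background shares were larger. The pooled list had a summit within 500 bp of 4 of 8 genes (29.2% of coding genes) and within 1000 bp of 7 (35.3%). Replicate 1 had 4 (31.1%) and 7 (40.3%), and replicate 2 had 6 (28%) and 8 (34.8%), where lin-40 and ssl-1 entered at 500 bp through entries of rank 21366 and 21283. A summit within 500 bp anywhere in both replicate lists occurred at 4 of 8 genes and at 20.3% of coding genes.

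The distances of these summits were spread over the whole 1000 bp. For 3 of the 8 genes, ssl-1, lin-40 and hda-1, the thresholded list had a summit beyond 500 bp and up to 1000 bp with none nearer, as did 463 of 19973 coding genes (2.32%). All 7 summits were upstream, from -152 to -980 bp, and 84.5% of all pairs of a gene and a thresholded summit within 1000 bp were upstream. Of the 7, 4 were intergenic and 3, both mep-1 summits and that of hda-1, fell in noncoding RNA exons. No share over all thresholded summits is given for these classes. In worms the annotated 5' end is often a trans-splice acceptor or start codon, not the base where transcription begins. The genes next to the members on the other side were srh-76 (let-418), M04B2.2 (mep-1), kcnl-4 (hda-1), nrsn-1 (lin-40), npa-1 (mys-1), gldi-8 (epc-1), nep-1 (trr-1) and Y111B2A.21 (ssl-1). The 8 genes lie on chromosomes II, III, IV and V, with 4 on V, and none is on X.

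**Figure D3:**
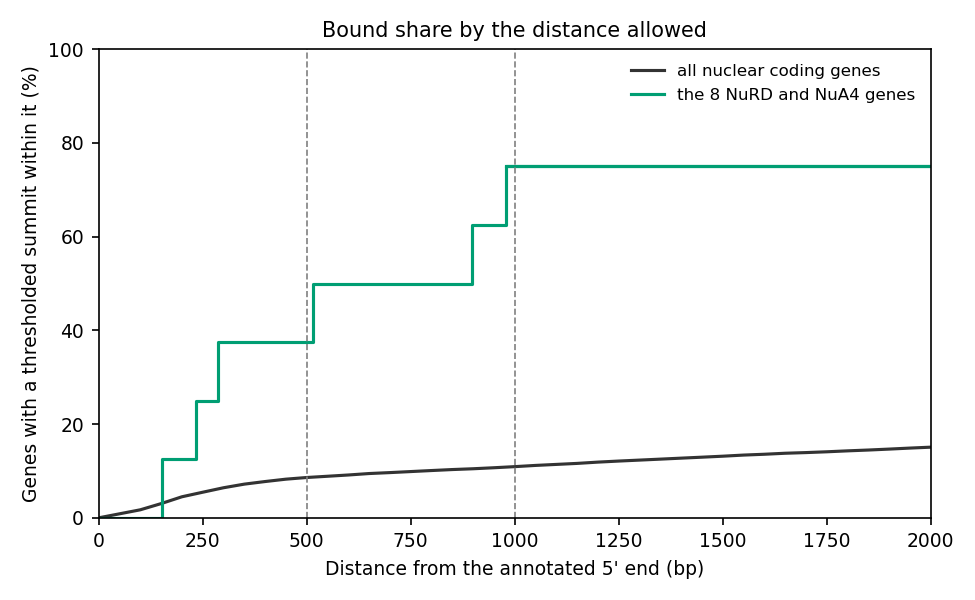
Share of genes (y axis, %) with a thresholded summit within a given distance in bp of the annotated 5' end (x axis), for the 8 NuRD and NuA4 genes as steps and all 19973 nuclear coding genes as a line. The steps reach 3 of 8 at 500 bp and 6 of 8 at 1000 bp, and the line 8.61% and 10.9%.

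The E2F word was present within 100 bp of 2 of the 7 thresholded summits, those of mys-1 and the nearer of mep-1. Both are among the 3 windows within 500 bp of a member, and none of the 4 windows farther away held it. It occurred in 24.7% of 1354 such windows at thresholded summits within 500 bp of a coding 5' end. The share was 23.2% of the 1658 within 1000 bp and 6.31% of windows of the same length just upstream of all coding genes. Where the nearest coding 5' end was beyond 500 and up to 1000 bp, the word occurred in 16.1% of 304 summit windows. These summit shares go by the nearest 5' end, by which the hda-1 window, at -280 bp from ril-1, counts as within 500 bp. A CHR word was present at 5 of 7, against 55.2% of the windows within 500 bp, 53.2% of those within 1000 bp and 56.2% of the upstream windows. The 7 windows had a GC content from 42.8 to 55.7%, above the medians of 39.3% for the summit windows within 500 bp and 32.8% for upstream windows; whether base composition bears on the word counts was not tested. The words of the E2F and CHR sets do not overlap each other in any window printed above.

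Genes with the most similar pattern were sought among the 1655 bound coding genes that had a summit within 500 bp in the pooled and both replicate lists, by the distance between log2 ranks over the 3 lists. For mys-1 (ranks 217, 188 and 251) they were Y55F3BR.1 (209, 194 and 237; distance 0.109) and F19B10.1 (rank 222 in the pooled list; distance 0.115). For mep-1 (2574, 3173 and 2351) they were F09E5.11 and bmy-1, which had the same ranks of 2203, 3000 and 2257 (distance 0.246). Because these ranks are identical in all 3 lists, F09E5.11 and bmy-1 count as 1 pattern, not as 2 separate ones.

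Paralogues and further subunits were read in the same way. The paralogue of let-418, chd-3, had no summit within 500 bp in either replicate list, and neither had rba-1, the paralogue of lin-53. The deacetylase genes hda-2 and hda-3 were unbound in the thresholded list, and the MTA gene egl-27, the paralogue of lin-40, had a summit at +794 bp at rank 2695. Of 8 genes for further NuRD subunits and paralogues 1 was bound, lin-53, which encodes the RbAp48-type histone chaperone shared with DREAM (signal 439, rank 73). The lin-53 summit is shared with nra-2, at -254 bp. The genes dcp-66 and mbd-2 were also unbound in the thresholded list. In replicates 1 and 2, dcp-66 had summits within 500 bp at ranks 10148 and 2377, and mbd-2 at ranks 18459 and 4680. Those of hda-2 were at ranks 9622 and 8750, and those of hda-3 at ranks 10130 and 18395. The count of 1 of 8 (12.5%) stands beside the 8.61% of all coding genes.

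Of 10 further genes listed for NuA4 or the related SWR1-type complex, among them the paralogue mys-2, 5 were bound (50%, against 8.61% of all coding genes). Each of the 5 was also within the 1000 strongest peaks of both replicates. They were ekl-4, the DMAP1 homologue (signal 401, rank 88), htz-1, which encodes the histone variant H2A.Z (291, rank 146), the chromodomain gene mrg-1 (202, rank 252), the AAA ATPase gene ruvb-2 (132, rank 503) and zhit-1 (105, rank 730). The htz-1 and mrg-1 summits are nearer to wapl-1 and spcs-2, and rps-20 shares that of ekl-4. The unbound ones were gfl-1, ruvb-1, ing-3, arp-6 and mys-2, a MYST-family paralogue of mys-1.

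Among 13 genes of other ATP-dependent remodellers 3 were bound at 500 bp (23.1%, against 8.61% of all coding genes) and 6 had a summit within 1000 bp, where 10.9% of all coding genes did. The bound ones were the ISWI gene isw-1 (signal 222, rank 223) and the SWI/SNF subunit genes swsn-3 (182, rank 300) and swsn-6 (125, rank 554); the swsn-6 summit is nearer to perm-3. Other synMuv repressor genes were bound at 1 of 11, lin-38 (signal 48.0, rank 2244), a share of 9.09% that is near the 8.61% of all coding genes. The strongest lin-38 summit within 500 bp ranked 12663 in replicate 1 and 1507 in replicate 2. Within 1000 bp 4 of the 11 had a summit, against 10.9%. DREAM subunit genes were bound at 7 of 8 (87.5%, against the same 8.61%) with a median signal of 348, led by lin-54, lin-53, efl-1, lin-9 and lin-35; the lin-54 summit is nearer to rpl-12. No difference between these lists was tested.

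**Figure D4:**
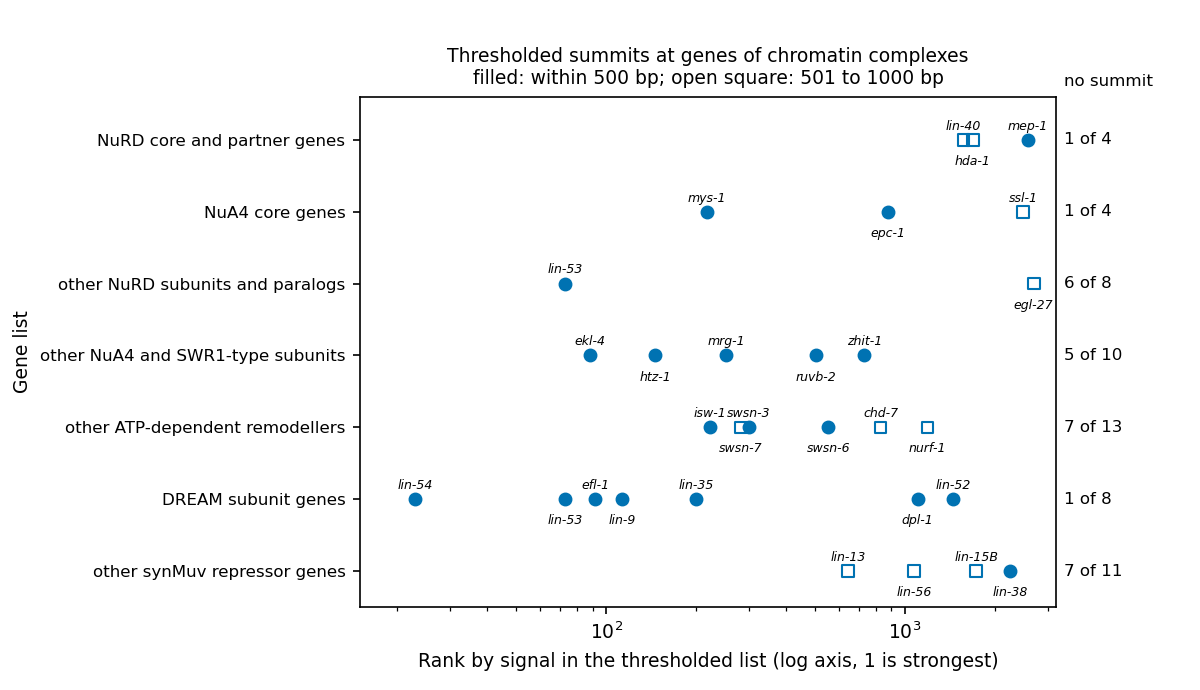
Rank by signal in the thresholded list (x axis, log scale, 1 is strongest) of the strongest summit at each gene of 7 lists (y axis), as filled circles within 500 bp and open squares beyond 500 and up to 1000 bp; the counts at the right are genes with no thresholded summit within 1000 bp. The summits of the first NuA4 list rank from 217 (mys-1) to 2483 (ssl-1), and those of the first NuRD list from 1568 to 2574. In the lists of further genes, ekl-4 leads for NuA4 with rank 88 and lin-53 for NuRD with rank 73.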

How the data were processed

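Peak lists of LIN-35 ChIP-seq from 2 biological replicates of 1 group were analysed. The relaxed lists came from alignments with a control and gave rise to the thresholded list, per the deposited text indexes. The control was not analysed here, and the software for alignment and peak calling was not given in the sources used here. The authors deposited a signal for each peak, whose scale is not stated, and its q-value as −log10. Depth per replicate is unknown, and so is the precision of a signal.

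The ce11 lists were used, since no peak passes a chromosome end of WBcel235, the same assembly; the 4 ce10 lists were not used. Summits were assigned to 5' ends of Ensembl release 115 genes with Python 3.11.15, pandas 2.3.3 and numpy 2.4.6, and coordinates are 1-based. Of 200 summits planted at known offsets, 200 were handled correctly. Those within 1000 bp were assigned at the planted offset, and those farther away were left unassigned. Members, lists, distances and words were chosen with earlier results of these data known. Named were the 8 members, genes sharing their summits, both neighbours of each member, up to 5 bound genes of highest signal per other list, named paralogues and the 2 genes of most similar rank for the strongest and weakest bound member. Other genes named in those lists, and the summits absent from the pooled list, were chosen after their values were seen. Alternatives were each replicate alone, other list lengths, distances and windows, nearest or transcript 5' ends, upstream summits and merged peaks.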

Additional observations from a re-analysis of the deposited data

How the results depend on the processing

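Of 36 alternative values of the counts, 28 stayed within 1.5 times the main value. The alternatives were not independent, and a count could stay in this range while its genes changed. Restriction to upstream summits could not change a count, because all summits counted were upstream. Each replicate alone at 500 bp entered under 2 of the counts with the same value. With summits within 200 bp, the thresholded list gave 1 gene (mep-1) and no longer mys-1 or epc-1, against 4.49% of all coding genes, and the strongest of both replicates gave 0, against 2.68%. Within 1000 bp the 6 genes became 2 (mys-1 and epc-1) with the 1356 strongest peaks, against 6.92% of all coding genes. They numbered 3 without replicate 2 and 6 without replicate 1, the former being mys-1, epc-1 and trr-1 in the list of replicate 1 alone. Without replicate 1 the 6 genes included trr-1 in place of hda-1. With each summit given only to its nearest coding 5' end, the 6 genes became 5, without hda-1. At 500 bp, the 3 genes among the strongest of both replicates then became 2, without trr-1. The share of all coding genes was not computed for this setting. The 2 of 7 thresholded summits matched among the strongest of both became 7 with the replicate lists at full length; leaving out 1 replicate it ran from 2 (without replicate 2) to 6 (without replicate 1). A CHR word was at 3 of 7 summits in windows of 50 bp on each side, against 32.3% of the 1658 thresholded summits within 1000 bp of a coding 5' end. With fewer peaks, a shorter distance or a narrower window fewer matches are possible by construction; the cause of the difference between the replicates was not tested. At 500 bp, mep-1 was not bound without replicate 2 or with the 1356 strongest peaks, and trr-1 was bound from either replicate alone and not in the pooled or thresholded list. No paired analysis was possible because the study has 1 group. Without read counts, no interval can be given for a signal, and a gene without a peak cannot be told apart from one with too few reads.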

Other observations

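The trr-1 summit is 1 of 10 that rank within 1000 in both replicate lists and have no pooled summit within 200 bp. Of these 10, 5 lie within 500 bp of a coding 5' end. Besides trr-1 with C47D12.2, the genes there are ahsa-1 with C01G10.7 (ranks 451 and 546 in replicates 1 and 2), seip-1 (628 and 806), rif-1.1 (654 and 626) and pqn-70 (959 and 967). Of the 10 summits 4 are on X, all of them without a coding 5' end within 500 bp. Of all 28 absent summits 8 (28.6%) are on X, against 198 (13.3%) of the 1490 shared summits. These values were examined after the trr-1 result was seen, and the cause was not tested.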
